A study of Mus musculus with 13 samples.

Results

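Collagen genes encode the alpha chains of the collagens, the proteins that form most of the extracellular matrix. The rule took every protein-coding mouse gene whose symbol is Col, a number, the letter a and a number, and found 44 genes among the 46679 gene IDs of the deposited tables. By the structure their products build, they comprised 11 fibrillar, 9 network-forming, 9 FACIT, 6 beaded filament, 4 transmembrane and 2 multiplexin genes, 1 anchoring fibril gene and 2 others. FACIT stands for fibril-associated collagens with interrupted triple helices.

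Collagen chains wind around each other into a triple helix inside the cell after hydroxylation of proline and lysine, and are secreted, trimmed and cross-linked outside it. Fibrillar collagens give tissue its tensile strength, and network collagens such as type IV form the sheet of the basement membrane. In the lung the type IV network of alpha 3, alpha 4 and alpha 5 chains lies between the air space and the capillary, while type II, IX and XI collagens are best known from cartilage.

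RNA was sequenced from 3 breast tumors (mice 6877, 6880 and 6881), from 4 tumor-bearing lungs (mice 6877, 6879, 6880 and 6881) and from 4 normal lungs (mice 6886, 6887, 6888 and 6893). All mice were female FVB animals aged 10 weeks. The tumors grew for 2 weeks from 250000 Met1 cells, 1 mouse breast cancer line, placed in the inguinal mammary fat pad at 8 weeks of age, so they hold cells of 1 line together with host tissue. Tumor-bearing lungs are lungs of mice that carried such a tumor elsewhere, and normal lungs come from mice labelled as having no tumor. Normal lungs 6886 and 6888 were each prepared in both preparation batches, which gives 13 libraries from 8 mice. The tests used 11 libraries, with the batch 1 library of those 2 lungs.

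The libraries held between 8321037 and 13982903 estimated counts. All breast tumors, the tumor-bearing lung of mouse 6877 and normal lungs 6887 and 6893 were prepared in batch 2. The other libraries used in the tests were prepared in batch 1. Collagens read lower in batch 2 within the same lung: the median log2 ratio of the batch 2 over the batch 1 library was −1.21 over 37 collagen genes in lung 6886 and −1.03 over 35 in lung 6888, against 0.01 and −0.01 over all genes with at least 20 counts in the pair. Batch was therefore a term of the gene-by-gene tests unless a sentence says otherwise, and levels below are given library by library. Since all tumors are batch 2, that term was estimated from the lungs alone. That it holds equally in tumors was assumed and could not be tested. The labels say that RNA with low integrity scores was not fragmented, but give no score for each library, and its part in the batch difference was not tested.

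Summed marker levels separated the tissues. The 8 lung epithelium markers summed to between 241 and 465 CPM, that is counts scaled to library size, in tumors, most of it Aqp5, against 9568 to 20002 CPM in tumor-bearing lungs and 14018 to 19767 CPM in normal lungs. The 8 mammary and tumor epithelium markers summed to between 1188 and 1641 CPM in tumors, against 217 to 277 CPM in tumor-bearing lungs and 218 to 326 CPM in normal lungs. Of these 8 genes 7 were higher in tumors and Krt19, an epithelial keratin, was lower, with 4.28, 3.97 and 4.66 CPM in tumors against 73.0 to 109.9 CPM in all lungs. Among the 7, Wfdc18 had too few counts in lungs alone to be tested there and could hardly have come out lower. In bulk tissue, fewer cells of a type and less RNA per cell cannot be told apart, and this holds for each difference below.

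The promoters of the type IV collagen genes and of a pair of cartilage collagens are shown first because type IV genes lie in head-to-head pairs, and the results turn on which partners moved together. Each line is the RefSeq window of the GRCm38.p6 build from 250 bases before to 50 bases after an annotated start, read 5′ to 3′ on the gene's own strand. Capitals mark CCAAT and GGGCGG on either strand. Of the 44 genes, 35 matched a window.
Col4a1, chr8:11312777-11313076, minus strand: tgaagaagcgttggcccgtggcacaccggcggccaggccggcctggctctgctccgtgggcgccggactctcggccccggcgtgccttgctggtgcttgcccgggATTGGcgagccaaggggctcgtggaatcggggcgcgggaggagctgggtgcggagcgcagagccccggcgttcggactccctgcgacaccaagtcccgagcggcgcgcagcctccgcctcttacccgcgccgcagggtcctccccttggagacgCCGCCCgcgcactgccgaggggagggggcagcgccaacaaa
Col4a2, chr8:11312555-11312854, plus strand: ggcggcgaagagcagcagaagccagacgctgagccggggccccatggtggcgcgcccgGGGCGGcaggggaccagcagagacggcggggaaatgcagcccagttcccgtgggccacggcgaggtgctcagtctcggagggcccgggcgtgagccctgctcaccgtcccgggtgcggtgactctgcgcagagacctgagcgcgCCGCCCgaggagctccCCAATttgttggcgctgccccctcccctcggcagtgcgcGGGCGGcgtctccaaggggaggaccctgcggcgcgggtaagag
Col4a4, chr1:82586800-82587099, minus strand: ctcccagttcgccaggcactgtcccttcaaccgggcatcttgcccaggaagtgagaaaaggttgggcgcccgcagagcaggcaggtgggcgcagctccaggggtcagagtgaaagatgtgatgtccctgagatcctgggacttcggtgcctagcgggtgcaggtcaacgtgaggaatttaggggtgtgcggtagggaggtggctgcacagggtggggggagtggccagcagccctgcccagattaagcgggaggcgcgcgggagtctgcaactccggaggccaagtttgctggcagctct
Col4a5, chrX:141475169-141475468, plus strand: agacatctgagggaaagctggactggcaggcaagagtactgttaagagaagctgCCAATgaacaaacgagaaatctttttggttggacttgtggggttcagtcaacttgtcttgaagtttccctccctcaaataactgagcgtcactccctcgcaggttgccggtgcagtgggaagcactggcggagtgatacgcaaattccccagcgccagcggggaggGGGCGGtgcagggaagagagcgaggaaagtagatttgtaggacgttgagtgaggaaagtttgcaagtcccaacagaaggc
Col4a6, chrX:141474027-141474326, minus strand: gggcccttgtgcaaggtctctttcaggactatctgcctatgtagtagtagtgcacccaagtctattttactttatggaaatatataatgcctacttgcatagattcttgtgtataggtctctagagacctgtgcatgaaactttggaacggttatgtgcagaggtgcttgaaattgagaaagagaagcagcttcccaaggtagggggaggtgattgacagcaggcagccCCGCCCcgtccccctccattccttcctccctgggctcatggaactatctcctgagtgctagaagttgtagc
Col11a1, chr3:114030290-114030589, plus strand: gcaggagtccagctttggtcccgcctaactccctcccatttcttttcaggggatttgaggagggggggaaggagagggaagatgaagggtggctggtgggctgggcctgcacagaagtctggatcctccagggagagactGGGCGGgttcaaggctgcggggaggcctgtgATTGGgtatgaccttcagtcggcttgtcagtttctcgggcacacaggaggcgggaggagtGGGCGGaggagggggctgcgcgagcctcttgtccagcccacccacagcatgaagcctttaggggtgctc
Col9a1, chr1:24177360-24177659, plus strand: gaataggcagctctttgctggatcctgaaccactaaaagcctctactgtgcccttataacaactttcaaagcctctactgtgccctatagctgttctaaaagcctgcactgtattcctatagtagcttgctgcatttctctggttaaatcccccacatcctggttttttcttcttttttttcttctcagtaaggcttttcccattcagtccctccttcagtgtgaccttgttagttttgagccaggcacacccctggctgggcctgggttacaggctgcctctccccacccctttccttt

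The windows of Col4a1 and Col4a2 share bases, since by the GENCODE M21 annotation their transcripts start 22 bases into each other. The start of Col4a3 lies 72 bases from that of Col4a4, inside the Col4a4 window, and the starts of Col4a5 and Col4a6 are 1309 bases apart. CCAAT, on either strand, was found in the windows of 13 of 35 collagen genes (37.1%), against 37.4% of all 32851 windows. GGGCGG, on either strand, was found in 22 of 35 (62.9%), against 35.7% of all windows. ACAAT, the short core bound by SOX proteins, was found in 2 of 35 (5.7%), against 31.0% of all windows. A match, or its absence from these windows, is a description of the sequence only.

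Within a library, the classes made up different shares of the summed collagen TPM, which are scaled by transcript length and so allow genes to be compared. Fibrillar genes held 53.7%, 66.8% and 60.0% of collagen TPM in tumors 6877, 6880 and 6881. They held 44.9%, 47.5%, 51.0% and 50.0% in tumor-bearing lungs 6877, 6879, 6880 and 6881, and between 30.9% and 43.8% in the 6 normal lung libraries. Each tumor thus lay above each lung, and each tumor-bearing lung above each normal lung library. The fibrillar genes Col1a1, Col1a2 and Col3a1 together held 34.7%, 52.4% and 49.6% in tumors, where the groups overlapped. Their joint share was 41.4% to 47.2% in tumor-bearing lungs and 27.0% to 40.7% in normal lung libraries.

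Network genes lay the other way. They held 8.36%, 8.10% and 10.6% of collagen TPM in tumors, between 35.5% and 37.0% in tumor-bearing lungs and between 36.2% and 51.4% in normal lungs. Tumors lay below all lungs, and the lung groups overlapped through the batch 2 library of normal lung 6886. FACIT genes held 28.7%, 17.4% and 19.9% in tumors, between 2.11% and 3.96% in tumor-bearing lungs and between 2.63% and 4.27% in normal lungs. Beaded filament genes held between 2.07% and 3.39% in tumors, between 5.60% and 7.60% in tumor-bearing lungs and between 8.58% and 9.64% in normal lungs. These shares of one sum are not independent of each other.

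A two-sided exact permutation test on the mean of the fibrillar share gave p = 0.0571 for tumors against normal lungs and for tumors against tumor-bearing lungs, the smallest p that 3 against 4 samples allow. The permutation takes no account of batch or of the pairing of tumors and lungs by mouse. For tumor-bearing against normal lungs the same exact permutation test gave p = 0.0286, the smallest p that 4 against 4 allow. The mean fibrillar share was 48.4% ± 2.73 in tumor-bearing lungs and 37.8% ± 5.41 in normal lungs (SD, n = 4 each). The network share was 36.1% ± 0.663 in tumor-bearing lungs and 43.2% ± 5.57 in normal lungs, with the same exact permutation p of 0.0286. Over the 24 such tests of 6 shares and 2 chain ratios, the Benjamini-Hochberg adjusted p of these tests was 0.0857. Within batch 1 alone the fibrillar share was 47.5%, 51.0% and 50.0% in tumor-bearing lungs and 43.8% and 30.9% in normal lungs. For the joint share of Col1a1, Col1a2 and Col3a1 the exact permutation test gave p = 0.171 for tumors against normal lungs. Against tumor-bearing lungs the exact permutation test of that joint share gave p = 0.857.

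**Figure D1:**
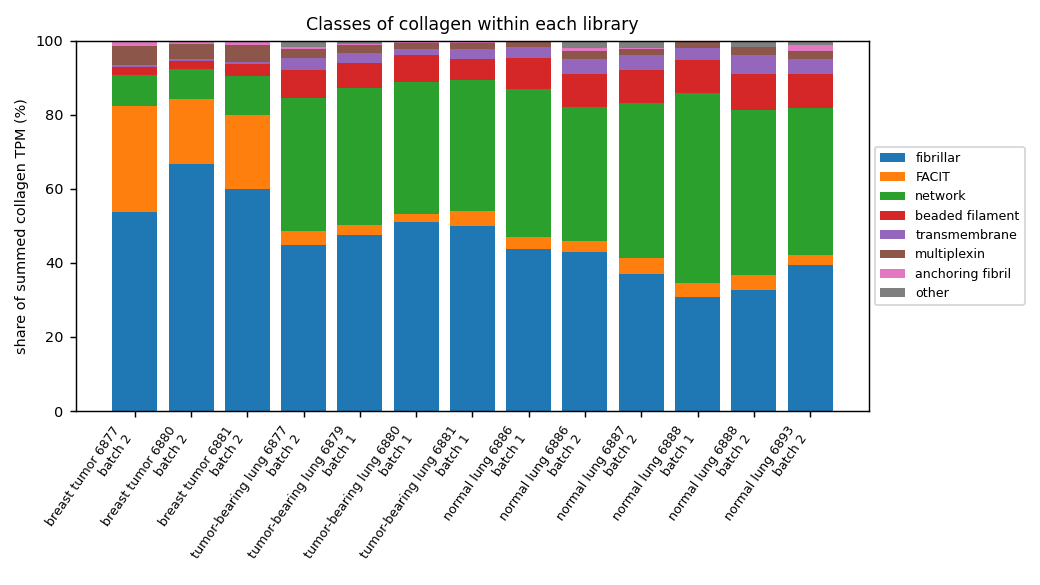
Share of the summed collagen TPM held by each class (vertical axis, %) in each of the 13 libraries (horizontal axis, breast tumors at the left). Fibrillar and FACIT genes fill most of the tumor bars, while network genes fill between 35.5% and 51.4% of the lung bars.

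The chains that lead the sum also differed. In tumors, Col1a1 and Col3a1 were the leading chains, and Col2a1 came next in tumors 6877 and 6880 with 10.1% and 6.42% of collagen TPM. In tumor 6881 the next was Col16a1 with 8.81%. In all lungs the leading chains were Col3a1 and Col4a1. The TPM ratio of Col1a1 to Col1a2, the partners of type I collagen, was 2.89, 3.03 and 2.80 in tumors, between 1.17 and 1.70 in tumor-bearing lungs and between 0.943 and 1.39 in normal lungs. The TPM ratio of Col3a1 to Col1a1 was 0.833, 1.55 and 1.66 in tumors, between 1.97 and 3.51 in tumor-bearing lungs and between 2.63 and 3.45 in normal lungs. Tumors did not overlap with lungs in either ratio, and both ratios had an exact permutation p of 0.0571 against normal lungs, the smallest that 3 against 4 allow.

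The next comparison asked which collagen genes differed between breast tumor and normal lung. Of the 42 genes tested, 29 passed an adjusted p of 0.05 in edgeR's quasi-likelihood test with Benjamini-Hochberg adjustment over 18297 genes: 18 were higher and 11 lower in tumors. Over all genes tested, 49.3% passed, 24.5% higher and 24.7% lower. The median log2 fold change was 0.50 over the collagens and −0.04 over all genes. Against tumor-bearing lung, 26 of 42 passed, 14 higher and 12 lower, where 46.3% of all genes passed, 22.6% higher and 23.7% lower. The median log2 fold change there was 0.41 over the collagens and −0.10 over all genes. By limma on log2(TPM + 1) the split against tumor-bearing lung was 13 higher and 2 lower, and on log2(TPM + 0.1) 13 higher and 6 lower, where the median of all genes was 0.08 and 0.22. With no batch term the split was 14 higher and 12 lower against normal lung and 11 higher and 14 lower against tumor-bearing lung. The comparisons share the tumor libraries, so their calls are given side by side: 14 genes were higher and 11 lower in both. Col2a1, Col9a1, Col9a2, Col9a3, Col11a1 and Col25a1, higher in both, were below the filter in lungs alone and could hardly have come out lower. Col6a4 and Col19a1 were below the filter, with at most 1.08 and 0.291 CPM in any library.

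**Figure D2:**
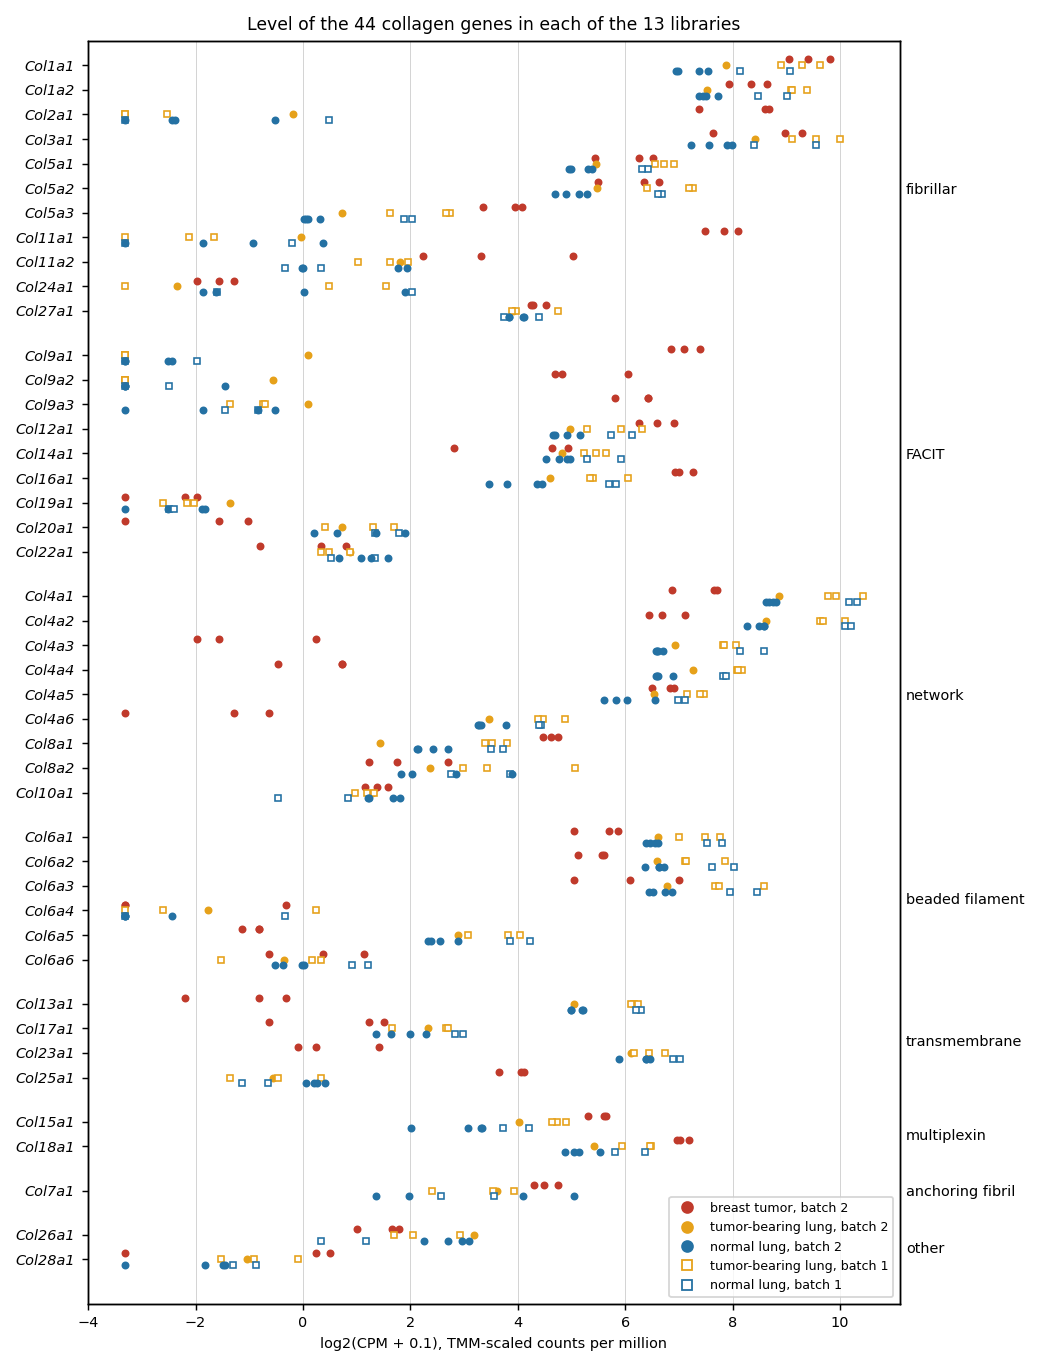
Level of each collagen gene (rows, grouped by class) in each library, as log2(CPM + 0.1) on the horizontal axis; each point is 1 library, filled for batch 2 and open for batch 1. Col2a1, Col9a1, Col9a2, Col9a3 and Col11a1 stand far to the right in tumors, and Col4a3, Col4a4, Col4a6, Col13a1 and Col23a1 far to the left.

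Among fibrillar genes, 8 of 11 were higher in tumors than in normal lungs and 5 of 11 were higher than in tumor-bearing lungs, and none was lower. Their median log2 fold changes were 1.37 and 0.91. The shares called were 72.7% and 45.5%, beside 49.3% and 46.3% of all genes in either direction. Over all genes, 24.5% and 22.6% were called higher. Col2a1 and Col11a1, higher in both comparisons, were below the filter in lungs alone and could hardly have come out lower. In the values that follow, libraries come in the order of mice 6877, 6880 and 6881 for tumors, 6877, 6879, 6880 and 6881 for tumor-bearing lungs, and 6886, 6888, 6887 and 6893 for normal lungs, of which the first tumor-bearing lung and the last 2 normal lungs are batch 2.

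Col1a1, the main chain of type I collagen, had 529, 905 and 676 CPM in tumors, 234, 625, 789.7 and 479 CPM in tumor-bearing lungs, and 535, 281, 122 and 186 CPM in normal lungs. The batch 2 lungs were the low ones, and every tumor lay above them. Its log2 fold change was 2.19 (SE 0.32, adjusted p = 0.000165) against normal lung and 1.57 (SE 0.36, adjusted p = 0.0035) against tumor-bearing lung. With the mouse as a block and no batch term, the second was 0.58 (adjusted p = 0.174), and with no batch term in the 11 libraries it was 0.40 (adjusted p = 0.51). With both the mouse as a random block and the batch term, Col1a1 kept its call.

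Col1a2, its partner chain, had 245, 399.8 and 323 CPM in tumors, 185, 545, 667 and 548 CPM in tumor-bearing lungs, and 517, 357, 174 and 182 CPM in normal lungs. The groups overlapped. The log2 fold change against normal lung was 0.93 (SE 0.23, adjusted p = 0.0057), and 0.07 (adjusted p = 0.914) with no batch term. Against tumor-bearing lung it was 0.64 (SE 0.27, adjusted p = 0.069), and 0.81 (adjusted p = 0.0229) without tumor 6877 and 0.80 (adjusted p = 0.033) without normal lung 6888, which enters the shared estimate of spread and batch. Col3a1, the chain of type III collagen, had 198, 629.5 and 503 CPM in tumors, 339.95, 552, 1023 and 754 CPM in tumor-bearing lungs, and 755, 339.5, 188 and 238 CPM in normal lungs. It passed in neither comparison, with log2 fold changes of 1.02 (SE 0.43, adjusted p = 0.069) and 0.46 (SE 0.47, adjusted p = 0.45). Without tumor 6877 Col3a1 was 1.38 (adjusted p = 0.00935) against normal lung, and without normal lung 6886 it was 1.16 (adjusted p = 0.0388).

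The type V chains, which regulate the width of type I fibrils, were higher in tumors than in normal lungs. Col5a2 had 44.9, 99.3 and 81.7 CPM in tumors, 44.2, 85.3, 153 and 145 CPM in tumor-bearing lungs, and 103, 97.8, 25.8 and 29.6 CPM in normal lungs. The batch 2 lungs were again the low ones, and tumor 6877 lay close to the tumor-bearing lung of the same mouse. Its log2 fold change was 1.37 (SE 0.31, adjusted p = 0.003) against normal lung. Against tumor-bearing lung it was 0.91 (SE 0.33, adjusted p = 0.043), a call that 7 of 25 alternatives kept. It was lost, at 0.66 to 1.10 with adjusted p between 0.051 and 0.125, on leaving out tumor 6880, tumor 6881, the tumor-bearing lung of 6877 or 6881, or any 1 normal lung. It was −0.53 (adjusted p = 0.129) with the mouse as a block, −0.51 (adjusted p = 0.457) with no batch term and 0.83 (adjusted p = 0.165) within batch 2. Col5a1 had a log2 fold change of 0.99 (SE 0.26, adjusted p = 0.0074) against normal lung and 0.65 (SE 0.29, adjusted p = 0.084) against tumor-bearing lung, where it was 0.92 (adjusted p = 0.00538) without tumor 6877. Against normal lung, with no batch term, the values of Col5a1 and Col5a2 were 0.25 (adjusted p = 0.638) and 0.23 (adjusted p = 0.744).

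Col5a3, the least abundant type V chain, had the larger change. It had 10.1, 16.7 and 15.2 CPM in tumors, 1.55, 6.60, 6.24 and 2.96 CPM in tumor-bearing lungs, and 3.59, 3.995, 0.935 and 0.916 CPM in normal lungs. Every tumor lay above every lung, and the log2 fold changes were 3.84 (SE 0.39, adjusted p = 8.8e-06) and 3.29 (SE 0.42, adjusted p = 6.4e-05). Of the remaining fibrillar genes, Col24a1 and Col27a1 passed in neither comparison.

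The cartilage collagens Col2a1 and Col9a1 were among the 3 collagen genes with the largest log2 fold changes in both comparisons. Type II collagen is a trimer of Col2a1 chains, type XI collagen of Col11a1, Col11a2 and Col2a1 chains lies in the core of the same fibril, and the type IX chains coat it. Col2a1 had 411, 391 and 166 CPM in tumors, 0.775, 0, 0 and 0.0723 CPM in tumor-bearing lungs, and 1.30, 0, 0.085 and 0.0916 CPM in normal lungs. Col11a1 had 228, 274 and 178 CPM in tumors, 0.872, 0, 0.129 and 0.217 CPM in tumor-bearing lungs, and 0.765, 0, 0.425 and 0 CPM in normal lungs. Both were high in every tumor and near the limit of detection in the lungs, where a count of 0 allows up to 3 counts, or 0.193 to 0.373 CPM depending on the library.

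The type IX chains followed the same order. Col9a1 had 168, 136 and 116 CPM in tumors, 0.969, 0, 0 and 0 CPM in tumor-bearing lungs, and 0.153, 0, 0.085 and 0 CPM in normal lungs. Col9a2 had 66.0, 28.2 and 25.7 CPM in tumors, 0.581 CPM in tumor-bearing lung 6877 and 0 in the other 3, and 0.0765 CPM in normal lung 6886 and 0 in the other 3. Col9a3 had 85.6, 85.5 and 55.9 CPM in tumors, 0.969, 0.498, 0.515 and 0.289 CPM in tumor-bearing lungs, and 0.459, 0.266, 0.595 and 0.458 CPM in normal lungs. Tumor 6877 was the highest of the tumors for Col9a1, Col9a2, Col9a3 and Col2a1.

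All 5 passed in both comparisons and under every alternative run. In lungs alone they were below the filter, so they entered these tests through the tumors. They could hardly have come out lower, and their passing adds no independent support. Since the lung groups held between 1 and 26 counts, the ratio of summed counts is given with a 95% binomial interval, which covers counting error only. The interval treats rounded estimated counts as read counts, so it is approximate. Tumors held 10627 counts of Col2a1 against 19 in normal lungs, a ratio of CPM of 771 (493 to 1281). Tumors held 7737 counts of Col11a1 against 15 in normal lungs, a ratio of 711 (431 to 1271). Tumors held 4654 counts of Col9a1 against 3 in normal lungs, a ratio of 2138 (731 to 10372). Tumors held 1247 counts of Col9a2 against 1 in normal lungs, a ratio of 1719 (308 to 67941). Tumors held 2537 counts of Col9a3 against 21 in normal lungs, a ratio of 167 (109 to 269). The widest intervals belong to Col9a2 and Col9a1, where the lungs held fewest counts. Normal lung 6886 held most of these counts for Col2a1, Col9a1 and Col11a1 and the only one of Col9a2. Without it the ratios were 5287 (1463 to 43661) for Col2a1, 4631 (831 to 182940) for Col9a1 and 1540 (659 to 4743) for Col11a1, and Col9a2, with 0 counts in the other normal lungs, was at least 414-fold higher against a floor of 3 counts over the group. These ratios of sums take no account of batch.

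Against tumor-bearing lungs the ratios were 1652 (869.75 to 3613) for Col2a1, 773 (460 to 1415) for Col11a1, 651 (354 to 1358.5) for Col9a1, 291 (133 to 794) for Col9a2 and 136 (92.9 to 209) for Col9a3. All of the Col9a1 and Col9a2 counts of those lungs, and most of the Col2a1 and Col11a1 counts, came from lung 6877. Without it the ratios were 11651 (2091 to 460240) for Col2a1 and 1697 (727 to 5226) for Col11a1, and against the same floor tumors were at least 1701-fold higher for Col9a1 and at least 456-fold higher for Col9a2. Leaving it out sets the batch 2 tumors against batch 1 lungs only. Within batch 2, against lung 6877 alone, the ratios were smaller. They were 402 for Col2a1, 260 for Col11a1, 141 for Col9a1, 62.9 for Col9a2 and 76.7 for Col9a3. Together the 5 genes held 33.2%, 20.3% and 15.4% of collagen TPM in tumors, against at most 0.245% in any lung library.

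Col11a2 was less uniform. It had 32.3, 9.81 and 4.59 CPM in tumors, 3.39, 2.99, 1.93 and 3.76 CPM in tumor-bearing lungs, and 0.688, 1.15, 3.74 and 3.30 CPM in normal lungs. The log2 fold change against normal lung was 2.42 (SE 0.66, adjusted p = 0.0094), and 1.33 (adjusted p = 0.056) without tumor 6877. Against tumor-bearing lung it was 1.44 (SE 0.82, adjusted p = 0.17), and 1.89 (adjusted p = 0.046) without tumor 6881 or 1.94 (adjusted p = 0.041) with the mouse as a block. Col10a1, the collagen of hypertrophic cartilage, stood between 0.621 and 3.39 CPM in every library and passed in neither comparison.

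Of 9 chondrocyte genes listed beside the collagens, 4 passed the filter, of which 3 were higher and 1 lower in tumors in both comparisons. Their summed level was between 87.2 and 111 CPM in tumors, between 4.12 and 12.7 CPM in tumor-bearing lungs and between 5.42 and 9.88 CPM in normal lungs. Most of the tumor sum was Sox9, a transcription factor of chondrocytes and of several epithelia, with 86.5, 84.9 and 80.0 CPM in tumors and at most 1.61 CPM in any lung. Snorc and Cnmd, a proteoglycan and a secreted factor of cartilage, were higher. Both were below the filter in lungs alone and could hardly have come out lower. Chad, a matrix protein of cartilage, was lower, with at most 0.832 CPM in tumors.

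The defining cartilage proteoglycan Acan was at 0 in every tumor. Matn1, Matn3 and Hapln1 had at most 0.311 CPM in tumors, and Comp at most 1.40 CPM. Sox10, a factor of neural crest cells and of part of the mammary epithelium, had 64.1, 65.7 and 61.7 CPM in tumors against at most 0.595 CPM in lungs. The part of any cell type in the cartilage collagen levels was not tested.

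**Figure D3:**
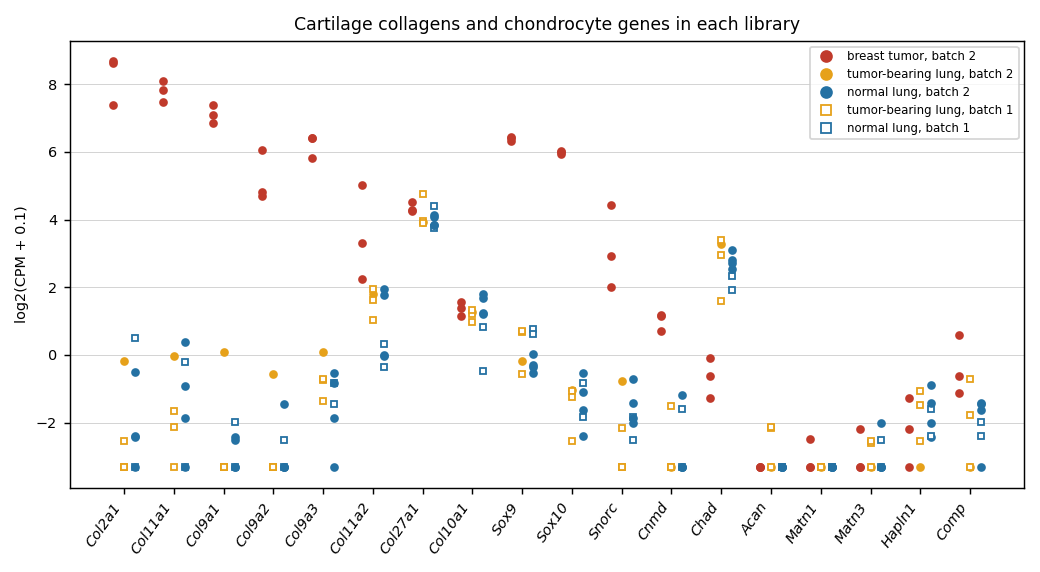
Cartilage collagens and chondrocyte genes (horizontal axis, with Sox10) in each library, as log2(CPM + 0.1) on the vertical axis; each point is 1 library. The tumors separate from all lungs for the type II, IX and XI chains, Sox9 and Sox10, while Acan, Matn1 and Matn3 lie at the lower limit in every group.

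Network collagens moved in both directions. Of 9 genes, 2 were higher and 5 lower in tumors than in normal lungs (median log2 fold change −1.38), and 1 was higher and 5 lower than in tumor-bearing lungs (median −1.30). The shares called were 77.8% and 66.7%, beside 49.3% and 46.3% of all genes. Col4a1, which with Col4a2 builds the type IV network of nearly all basement membranes, had 117, 201 and 208 CPM in tumors, 464, 883, 1373 and 969 CPM in tumor-bearing lungs, and 1279, 1147.5, 429 and 449.8 CPM in normal lungs. Col4a2 had 86.4, 103 and 138 CPM in tumors, 392, 796, 1091 and 819 CPM in tumor-bearing lungs, and 1089, 1188, 307 and 383 CPM in normal lungs. For both genes every tumor lay below every lung, also within batch 2. The log2 fold changes against normal lung were −1.38 (SE 0.26, adjusted p = 0.001) for Col4a1 and −1.78 (SE 0.25, adjusted p = 0.000104) for Col4a2. Against tumor-bearing lung they were −1.30 (SE 0.28, adjusted p = 0.0028) and −1.63 (SE 0.26, adjusted p = 0.00036), and limma on log2(TPM + 1) gave −0.75 for each (adjusted p = 0.298 and 0.224).

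The chains of the mature alveolar network fell much further. Col4a3 had 0.238, 0.156 and 1.09 CPM in tumors, 122, 227, 268 and 229 CPM in tumor-bearing lungs, and 280.4, 383, 94.9 and 97.4 CPM in normal lungs. Col4a4 had 1.55, 1.56 and 0.622 CPM in tumors, 154, 289.5, 272 and 273 CPM in tumor-bearing lungs, and 227, 235, 95.4 and 96.4 CPM in normal lungs. The head-to-head neighbours were thus both near 0 in tumors and both above 90 CPM in every lung library. Within batch 2, tumors held 18 counts of Col4a3 against 4659 in normal lungs, which is 186-fold lower (95% binomial interval 118 to 315). Over the 11 libraries, where batch 1 lungs enter the sum, the ratio was 409.8-fold, and 1149-fold without tumor 6881, which held 14 of the 18 counts. The log2 fold changes against normal lung were −7.69 (SE 0.48, adjusted p = 2.4e-07) for Col4a3 and −6.38 (SE 0.30, adjusted p = 2.7e-08) for Col4a4.

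The partners on the X chromosome moved apart. Col4a5, which joins the alveolar network as well as that of alpha 6 chains, had 90.2, 115 and 119 CPM in tumors, 92.2, 141, 176 and 168 CPM in tumor-bearing lungs, and 138, 126, 56.4 and 65.4 CPM in normal lungs. It was higher in tumors than in normal lungs, with a log2 fold change of 0.76 (SE 0.18, adjusted p = 0.0045), but 0.16 (adjusted p = 0.71) with no batch term. Against tumor-bearing lung it was 0.36 (SE 0.20, adjusted p = 0.16). Col4a6 had 0, 0.311 and 0.544 CPM in tumors, 10.95, 29.2, 22.1 and 20.6 CPM in tumor-bearing lungs, and 21.6, 20.9, 13.6 and 9.43 CPM in normal lungs. It was lower in both comparisons, with log2 fold changes of −5.09 (SE 0.46, adjusted p = 3.9e-06) and −5.18 (SE 0.49, adjusted p = 6.9e-06). Within tumors the TPM ratio of Col4a5 to Col4a6 was 365 in tumor 6880 and 232 in tumor 6881, against 4.60 to 11.0 in lungs.

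Col8a1, a short-chain collagen of vessel walls and remodelling tissue, was higher in tumors, with 26.6, 24.4 and 22.1 CPM against 2.62 to 13.8 CPM in tumor-bearing lungs and 4.25 to 13.1 CPM in normal lungs. Its log2 fold changes were 2.64 (SE 0.23, adjusted p = 2.9e-06) against normal lung and 2.88 (SE 0.27, adjusted p = 6.1e-06) against tumor-bearing lung. Its partner Col8a2 passed in neither, although it was −1.85 (adjusted p = 0.034) against tumor-bearing lung with no batch term.

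Markers of cells that lay down lung basement membrane were mostly lower in tumors, as were Col4a1, Col4a2, Col4a3, Col4a4 and Col4a6. Col8a1 and, against normal lung, Col4a5 were higher. All 6 endothelial markers were lower in tumors, and their sum was between 65.1 and 87.5 CPM in tumors, 1215 to 2108 CPM in tumor-bearing lungs and 1172 to 2533 CPM in normal lungs. Of 8 lung epithelium markers 7 were lower in tumors, and Ager and Rtkn2, of the flat alveolar cells, had at most 3.19 and 0.855 CPM there. The part of these cells in the network collagen differences was not tested.

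Beaded filament genes, whose type VI chains link cells to the surrounding matrix, were lower or not called. Col6a1 had 32.8, 58.0 and 51.5 CPM in tumors, 97.9, 179.6, 218 and 128 CPM in tumor-bearing lungs, and 224, 184, 83.3 and 98.0 CPM in normal lungs. Col6a2 had 34.7, 48.5 and 47.6 CPM in tumors, 96.9, 138, 232 and 139.9 CPM in tumor-bearing lungs, and 262, 197, 83.0 and 104.9 CPM in normal lungs. Every tumor lay below every lung for both genes. Against normal lung the log2 fold changes were −1.01 (SE 0.26, adjusted p = 0.007) for Col6a1 and −1.22 (SE 0.26, adjusted p = 0.0023) for Col6a2.

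Against tumor-bearing lung the changes of Col6a1 and Col6a2 were −0.90 (SE 0.28, adjusted p = 0.02) and −0.95 (SE 0.28, adjusted p = 0.015). Without the tumor-bearing lung of mouse 6877 they were −0.71 (adjusted p = 0.185) and −0.67 (adjusted p = 0.198), and without tumor 6877 −0.69 (adjusted p = 0.057) and −0.80 (adjusted p = 0.053). Col6a5 was lower in both comparisons, with log2 fold changes of −3.99 (SE 0.37) and −3.81 (SE 0.39). Col6a3, the largest chain of classical type VI collagen, had 33.2, 67.7 and 127 CPM in tumors, 109.7, 203, 382 and 215 CPM in tumor-bearing lungs, and 349, 249, 91.1 and 107 CPM in normal lungs. It was not called, at −0.45 (SE 0.42, adjusted p = 0.41) and −0.39 (SE 0.46, adjusted p = 0.51). Without tumor 6881 Col6a3 was −1.03 (adjusted p = 0.040) against normal lung. With the mouse as a block and no batch term, Col6a3 was −1.71 (adjusted p = 0.012) against tumor-bearing lung.

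FACIT collagens sit on the surface of fibrils. Apart from the type IX chains, Col16a1 and Col12a1 were higher in tumors in both comparisons. Col16a1 had 121, 127 and 153 CPM in tumors, 24.1, 42.2, 40.4 and 66.2 CPM in tumor-bearing lungs, and 56.5, 51.9, 20.3 and 11.0 CPM in normal lungs. Every tumor lay above every lung, and the log2 fold changes were 2.91 (SE 0.31, adjusted p = 1.3e-05) and 2.78 (SE 0.33, adjusted p = 3.5e-05). Col12a1 had log2 fold changes of 1.65 (SE 0.28, adjusted p = 0.00044) and 1.67 (SE 0.31, adjusted p = 0.00099), the second of which was 0.80 (adjusted p = 0.071) with the mouse as a block and 0.89 (adjusted p = 0.053) with no batch term. Col20a1 was lower, at −3.19 (SE 0.74, adjusted p = 0.0035) and −2.83 (SE 0.79, adjusted p = 0.012), with at most 0.389 CPM in any tumor and 3.62 CPM in any lung. Against tumor-bearing lung Col20a1 was −3.22 (adjusted p = 0.051) with the mouse as a block and −2.81 (adjusted p = 0.056) without the lung of mouse 6877. Col14a1 and Col22a1 were not called, though Col14a1 was −1.20 (adjusted p = 0.022) against tumor-bearing lung with the mouse as a block.

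Transmembrane collagens span the cell membrane and can be shed from it. Col13a1 had 0.119, 0.467 and 0.700 CPM in tumors, 33.0 to 75.7 CPM in tumor-bearing lungs and 31.6 to 78.6 CPM in normal lungs. Col23a1 had 0.832, 2.57 and 1.09 CPM in tumors, 69.1 to 107 CPM in tumor-bearing lungs and 59.0 to 129.8 CPM in normal lungs. Both were near 0 in tumors, with log2 fold changes against normal lung of −6.18 (SE 0.31, adjusted p = 4e-08) and −5.62 (SE 0.37, adjusted p = 3.6e-07). Col25a1, first found in plaques of the brain, went the other way, with 16.6, 17.1 and 12.4 CPM in tumors and at most 1.24 CPM in lungs. Its log2 fold changes were 4.15 (SE 0.48, adjusted p = 2.7e-05) and 4.04 (SE 0.60, adjusted p = 0.0002). Col17a1, a hemidesmosome protein, was not called, although with no batch term it was −1.60 (adjusted p = 0.0243) against normal lung and −1.50 (adjusted p = 0.0313) against tumor-bearing lung.

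Both multiplexins, basement membrane collagens that carry heparan or chondroitin sulfate chains, were higher in tumors. Col18a1, the source of endostatin, had 130.1, 146 and 125 CPM in tumors, 42.8 to 88.7 CPM in tumor-bearing lungs and 29.2 to 82.2 CPM in normal lungs. Its log2 fold changes were 1.78 (SE 0.22, adjusted p = 5e-05) and 1.61 (SE 0.25, adjusted p = 0.00029). Col15a1 had 39.5, 48.3 and 50.0 CPM in tumors, 16.1, 26.4, 29.7 and 24.9 CPM in tumor-bearing lungs, and 13.2, 18.5, 3.91 and 8.33 CPM in normal lungs. Its log2 fold changes were 2.75 (SE 0.30, adjusted p = 1.5e-05) and 1.76 (SE 0.31, adjusted p = 0.00067), the second of which was 0.92 (adjusted p = 0.058) with no batch term. Neither gene's tumors overlapped with lungs.

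Col7a1, which anchors epithelium to the tissue beneath, was not called against either lung group, although with the mouse as a block it was 1.14 (adjusted p = 0.046) against tumor-bearing lung, and without normal lung 6893 it was 1.95 (adjusted p = 0.0187) against normal lung. Col26a1 was lower in tumors than in tumor-bearing lungs, at −2.12 (SE 0.51, adjusted p = 0.0052), and −0.86 (adjusted p = 0.247) with the mouse as a block. Against normal lung Col26a1 was −0.96 (SE 0.44, adjusted p = 0.092), and −1.25 (adjusted p = 0.0078) within batch 2 and −1.04 (adjusted p = 0.039) without the tumor-bearing lung of mouse 6879. It read higher in batch 2 than in batch 1 libraries of the same lungs, by 1.90 on the log2 scale in lung 6886 and 2.30 in lung 6888. Col28a1 was not called, although it was 2.33 (adjusted p = 0.0129) against normal lung without tumor 6877.

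**Figure D4:**
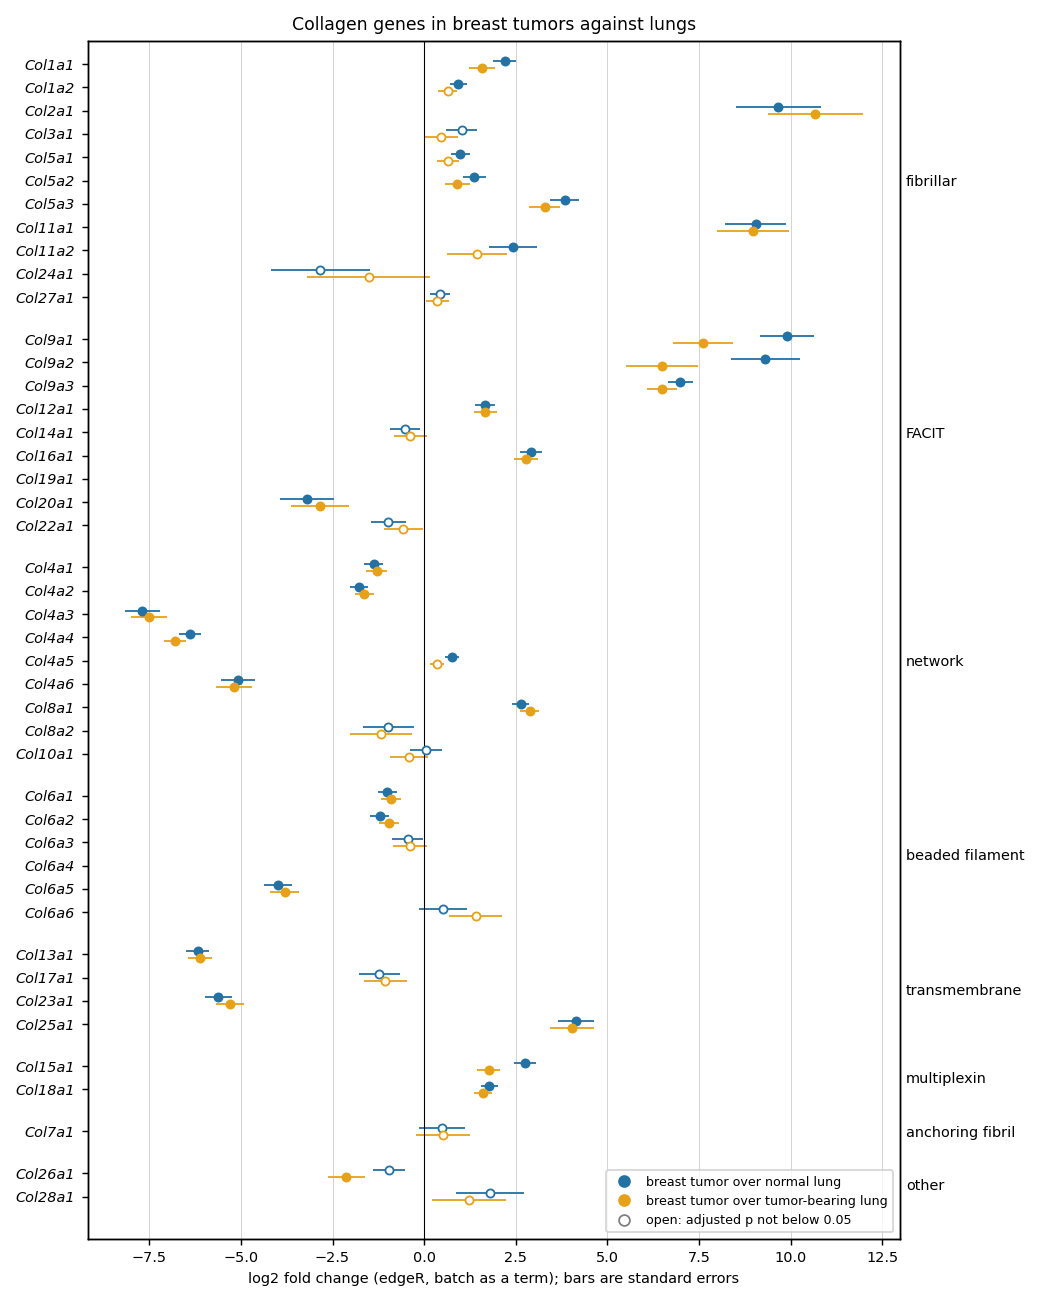
Log2 fold change of each tested collagen gene in breast tumors over normal lungs and over tumor-bearing lungs (horizontal axis), by class; bars are standard errors and filled points passed an adjusted p of 0.05. The fibrillar genes that passed lie right of 0 and the 5 network genes that passed as lower in both comparisons lie left of it.

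Fibroblast markers, as candidates for the cells that make fibrillar collagens, did not move together. Of 7 markers, 2 were higher and 4 lower in tumors in both comparisons, and their sum was between 81.8 and 114 CPM in tumors, 301 to 565 CPM in tumor-bearing lungs and 285 to 547 CPM in normal lungs. Pdgfra had between 28.6 and 40.6 CPM in tumors against 138 to 294 CPM in normal lungs, and Tcf21, a factor of lung fibroblasts, had at most 0.0779 CPM in tumors. Lum was higher, with at least 9.80 CPM in each tumor against at most 3.97 CPM in any lung. Of 7 smooth muscle and pericyte markers, 1 was higher and 5 were lower in tumors in both comparisons. All 4 adipocyte markers tested were higher in tumors, where their list summed to between 81.9 and 235 CPM, against 2.25 to 15.8 CPM in tumor-bearing lungs and 3.44 to 24.4 CPM in normal lungs. Of the markers called higher, Adipoq, Cfd and the fibroblast marker Fap were below the filter in lungs alone and could hardly have come out lower. The part of these cells in the fibrillar differences was not tested.

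The genes listed for folding and modification of the chains were split between directions. Of 20, 7 were higher and 3 lower in tumors than in normal lungs, and 9 higher and 3 lower than in tumor-bearing lungs. P4hb, a subunit of prolyl 4-hydroxylase, had 1607, 992 and 922 CPM in tumors, against 162 to 280 CPM in tumor-bearing lungs and 279 to 328 CPM in normal lungs. Its change was 1.83 (SE 0.27, adjusted p = 0.000156) on the log2 scale against normal lung. P3h1, a prolyl 3-hydroxylase, was 1.70 (SE 0.27) higher on the log2 scale. Colgalt2, which adds galactose to hydroxylysine, had log2 fold changes of −3.46 (SE 0.25) against normal lung and −3.79 (SE 0.26) against tumor-bearing lung, and P3h3 −2.29 (SE 0.23) and −2.30 (SE 0.25).

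Of 13 tested genes for processing and cross-linking, 2 were higher and 4 lower against normal lung, and 3 higher and 4 lower against tumor-bearing lung. Bmp1, which cleaves the C-propeptide of fibrillar procollagens, had between 114 and 141 CPM in tumors and 21.4 to 37.0 CPM in normal lungs (log2 fold change 2.44, SE 0.17). Its enhancers Pcolce and Pcolce2 were lower, at −2.07 (SE 0.22) and −5.54 (SE 0.25). Loxl3, a cross-linking lysyl oxidase, was higher at 3.60 (SE 0.44).

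Of 12 fibril-associated genes, 2 were higher and 6 lower against normal lung, and 3 higher and 5 lower against tumor-bearing lung. Thbs2, a matricellular protein, had 57.9, 40.7 and 51.2 CPM in tumors against 0.765 to 2.75 CPM in normal lungs (log2 fold change 5.38, SE 0.29). Ogn and Prelp, small leucine-rich proteoglycans, were lower at −4.77 (SE 0.35) and −4.30 (SE 0.37), and Fbln1 at −2.62 (SE 0.26). Of 11 receptors and uptake genes, 2 were higher and 5 lower against normal lung, and 1 higher and 6 lower against tumor-bearing lung. Itga1 and Itga2, collagen-binding integrin chains, were −3.37 (SE 0.23) and −2.10 (SE 0.30), the endocytic receptor Mrc2 was −2.22 (SE 0.29) and the platelet receptor Gp6 was −4.46 (SE 0.71), all against normal lung with adjusted p of at most 0.00029. Against normal lung 50% of folding, 46.2% of processing, 66.7% of fibril-associated and 63.6% of receptor genes were called, beside 49.3% of all genes. Against tumor-bearing lung the shares were 60%, 53.8%, 66.7% and 63.6%, beside 46.3% of all genes.

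The last comparison asked whether collagen genes differed between tumor-bearing and normal lung. None of the 35 genes tested passed in edgeR, where 0.0359% of 16727 genes passed (0.012% higher and 0.0239% lower), and 7 of the 35 (20%) had an unadjusted p under 0.05, against 14.0% of all genes. The filter left out Col2a1, Col6a4, Col9a1, Col9a2, Col9a3, Col11a1, Col19a1, Col25a1 and Col28a1, which had too few counts in lungs. Of the 35 log2 fold changes, 17 were above 0 and 18 below, with a median of −0.01 against 0.01 over all genes. Their standard errors ran between 0.11 and 1.15.

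The 5 collagens with the smallest unadjusted p all had positive values. Of these, Col4a4, Col4a5 and Col1a1 kept their sign in 18 of 20 alternatives, with lowest values of −0.27, −0.29 and −0.06. Col15a1 and Col26a1 stayed positive in every alternative. Col15a1 had the smallest p, with a log2 fold change of 0.99 (SE 0.25, adjusted p = 0.19). DESeq2 called it, at 0.99 (SE 0.27, adjusted p = 0.017), as did edgeR with no filter on low counts, at 0.97 (SE 0.23, adjusted p = 0.036). The other alternatives gave no collagen call. Within batch 1 Col15a1 was 0.80 (SE 0.22) and within batch 2, with 1 tumor-bearing lung, 1.01 (SE 0.45).

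Col4a4 had a log2 fold change of 0.42 (SE 0.12, adjusted p = 0.21), with 0.29 (SE 0.14) within batch 1 and 0.60 (SE 0.16) within batch 2. Col4a5 had 0.41 (SE 0.13, adjusted p = 0.24), Col26a1 1.15 (SE 0.40, adjusted p = 0.28) and Col1a1 0.62 (SE 0.25, adjusted p = 0.32). Col1a1 was 0.65 (SE 0.32) within batch 1 and 0.65 (SE 0.24) within batch 2. None of these values passed the adjustment within a batch. By class, the median log2 fold change was 0.47 over 9 fibrillar genes, 0.10 over 9 network genes, −0.18 over 5 beaded filament genes and −0.13 over 5 FACIT genes.

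**Figure D5:**
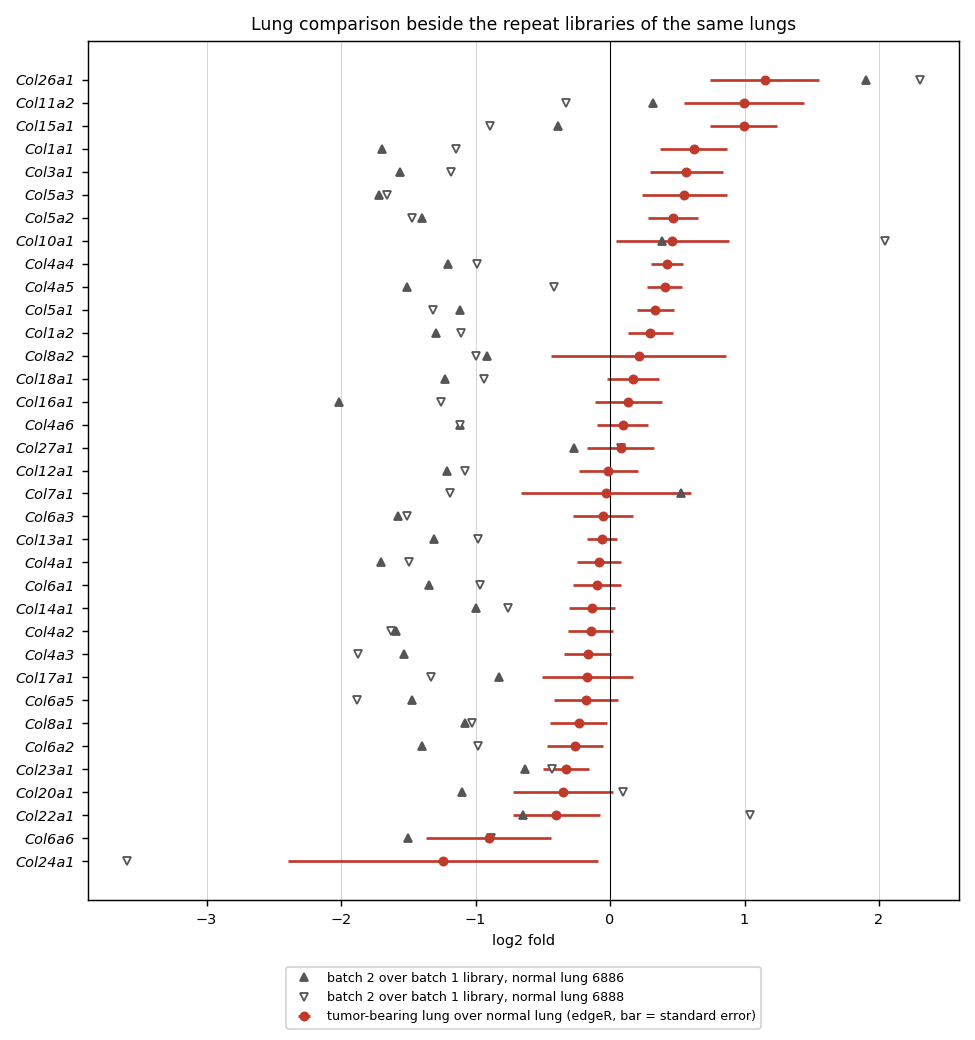
Log2 fold change of the 35 tested collagen genes in tumor-bearing over normal lungs (circles, bars are standard errors) beside the log2 ratio of batch 2 over batch 1 libraries of the same normal lung (triangles), for genes with at least 20 counts in the pair. Over all collagens with enough counts the batch ratio was below 0 for 31 of 37 genes in lung 6886 and 30 of 35 in lung 6888, while the lung comparison had 17 genes above 0 and 18 below.

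None of the pathway genes passed edgeR's test in the lung comparison: 0 of 20 folding, 0 of 13 processing, 0 of 12 fibril-associated and 0 of 11 receptor genes, with 6, 2, 0 and 1 at an unadjusted p under 0.05, a level that 14.0% of all genes reached. P4ha1, the catalytic subunit of prolyl 4-hydroxylase, was at −1.02 (SE 0.18, adjusted p = 0.12) and the collagen chaperone Serpinh1 at −0.71 (SE 0.20, adjusted p = 0.21). Loxl1, a lysyl oxidase that acts on elastic fibres, was at 0.62 (SE 0.14, adjusted p = 0.18). P4ha1 passed under DESeq2 (−1.03, adjusted p = 0.000304), with no filter (−1.04, adjusted p = 0.00245), within batch 1 (−1.32, adjusted p = 0.0286) and without the tumor-bearing lung of mouse 6877 (−1.33, adjusted p = 0.019). DESeq2 also called Serpinh1 (−0.71, adjusted p = 0.037) and Loxl1 (0.62, adjusted p = 0.0154).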

How the data were processed

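Total RNA depleted of ribosomal RNA was sequenced as single-end reads of 75 bases from 100 ng of RNA. The authors deposited estimated counts and TPM per Ensembl gene ID, and the submitters' processing notes name Salmon, DESeq2 1.18.1 and the mm10 build. For the 15667 genes checked, the ratio of estimated count to TPM was the same in every library, apart from a factor for each library. The estimated counts are thus not direct tallies of reads. IDs were named from GENCODE M21 (46269 of 46679 matched). The deposited estimated counts were rounded and tested with edgeR 4.0.16 (quasi-likelihood, TMM, filterByExpr, group and preparation batch, 8 libraries for the lung comparison and 11 for the others, Benjamini-Hochberg threshold 0.05). The SE of an edgeR log2 fold change was back-calculated as its size over the square root of the F statistic. The deposited TPM served for shares. CPM were computed with TMM over 13 libraries. Libraries of a group come from separate mice, apart from the repeats, and p-values measure the spread between mice. Libraries held 8321037 to 13982903 estimated counts. Counting intervals cover counting error only and treat rounded estimated counts as read counts. The fits were also run on simulated counts of independent libraries, with the same dispersion for every gene and no pairing by mouse, unlike the data.

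The members and lists were chosen with earlier results of these data known. A collagen was given library by library when it was called against a lung group and was among the 12 with the largest mean TPM or the 4 with the largest change in a comparison. For the lung comparison the 5 with the smallest p were named, and for other lists up to 4. Col3a1, Col5a3, Col6a3, Col9a3, Col11a2 and Col15a1 were added after their values were seen, as were genes of the marker lists. Tumors and lungs of mice 6877, 6880 and 6881 are paired by mouse. The correlation of their deviations from the group means was 0.179, 0.0355 and −0.133 over 18297 genes. Alternatives used DESeq2 1.42.0 and limma 3.58.1.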

Additional observations from a re-analysis of the deposited data

Results flagged for a closer look

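Across 70 sets of 4 lung libraries, drawn from the collagen genes that were not near 0, 3 held a library far from the rest. Chance gives about 1 in 20. Col4a4 was low in tumor-bearing lung 6877, at 154 CPM against 272 to 289.5 CPM in the other tumor-bearing lungs. Col13a1 was low in the same lung, at 33.0 CPM against 68.7 to 75.7 CPM. That library is the only tumor-bearing lung of batch 2, and the same genes read lower in batch 2 than in batch 1 of normal lungs 6886 and 6888. Col27a1 was high in tumor-bearing lung 6879, at 26.6 CPM against 14.8 to 15.4 CPM in the others.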

How the results depend on the processing

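Between tumor-bearing and normal lung the number of collagens called was 1, higher, with no filter and 1, higher, under DESeq2, and 0 without each mouse in turn. Against normal lung 22 of the 29 calls held under all 23 alternatives, and leaving out each mouse gave 29 to 30 calls (18 to 19 higher, 11 to 12 lower). Against tumor-bearing lung 11 of the 26 calls held under all 25, and leaving out each mouse gave 22 to 26 (13 to 16 higher, 9 to 12 lower). There limma on log2(TPM + 1) gave 15 calls, 2 of them lower, and on log2(TPM + 0.1) 6 lower. In the deposited TPM, protein-coding genes summed to between 38466 and 69928 in tumors and between 17715 and 37316 in tumor-bearing lungs. The cause of the split was not tested. Col5a2 reversed there to −0.51 with no batch term, −0.52 with repeats summed and no batch term and −0.53 with the mouse as a replicate block, and Postn to −0.22, −0.23 and −0.22. The replicate block, over 6 libraries with no batch term, gave 25 calls (13 higher, 12 lower), 21 of them shared. It lost Col1a1, Col5a2, Col12a1, Col20a1 and Col26a1, gained Col6a3, Col7a1, Col11a2 (1.94) and Col14a1, and changed no other collagen call; it also lost P4ha1 (0.58) and Serpinh1 (0.41) and gained Bgn (−1.25). In it, mouse 6877 alone has both libraries in batch 2. An alternative chosen after seeing the data, limma voom with the mouse as a random block and the batch term, gave 25 calls, all shared. Within batch 2 there were 31 calls against normal lung, 29 shared, and 24 against the tumor-bearing lung, all shared; that group has 1 library there, which is assumed to vary like the other groups, so the 24 say nothing of its spread. Col3a1 passed against normal lung within batch 2 (1.13) and without tumor 6877 (1.38). Low counts limit the ratios of the cartilage chains.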

Other observations

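Traces of the cartilage collagens appeared in some lungs, and are given as values only. Tumor-bearing lung 6877 held 8, 10.3, 5.6, 10.3 and 9.3 estimated counts of Col2a1, Col9a1, Col9a2, Col9a3 and Col11a1, while the other tumor-bearing lungs held none of Col9a1 and Col9a2. Its library was prepared in batch 2, as were the tumors, and it held 1.55 CPM of the casein gene Csn3 and 0.388 CPM of Wfdc18, which had at least 255 and 23.1 CPM in tumors. Csn3 had 0.498 to 1.01 CPM in the other tumor-bearing lungs and 0.183 to 0.917 CPM in normal lungs, and Wfdc18 had 0 in the other tumor-bearing lungs and at most 0.0888 CPM in normal lungs. Normal lung 6886 held 17.3 estimated counts of Col2a1 in batch 1 and 7.6 in batch 2, and 10.2 and 16 of Col11a1. The source of these counts was not tested.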
